A study of Mus musculus with 4 samples.

Results

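The genes described here are the 4 subunit genes of the platelet glycoprotein Ib-IX-V receptor, Gp1ba, Gp1bb, Gp5 and Gp9, and the gene of its main ligand, von Willebrand factor (Vwf). The genes were chosen with earlier results of these data known. Their probes were taken by name, as all non-control probes whose RefSeq transcript belongs to one of the 5 symbols. This gave 5 of the 20887 genes named on the array and 7 of its 55681 probes. RNA came from mouse bone marrow LSK cells, the lineage-negative, Sca-1-positive and c-Kit-positive fraction that holds stem cells and multipotent progenitors, sorted from C57BL/6 mice that were wild type or Sf3b1+/-. Sf3b1 encodes a core protein of the spliceosome, and the heterozygotes were used because embryos without it die before implantation. Native LSK cells were taken at 20 weeks of age. Transplanted LSK cells were CD45.2+ donor cells recovered 9 months after unfractionated marrow of either genotype was given to lethally irradiated CD45.1+ recipients, a design meant to set aside effects of the marrow environment. The design text states n = 4 for native mice and n = 5 for recipients, while every group has 1 single-colour array, and nothing read here says whether mice were pooled.

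Glycoprotein Ib-IX-V is the receptor by which platelets catch on von Willebrand factor at a damaged vessel wall under fast flow. Glycoprotein Ib alpha carries the binding site for von Willebrand factor and is joined by disulfide bonds to glycoprotein Ib beta. Glycoprotein IX is needed to bring that pair to the cell surface, and glycoprotein V is attached more loosely and is cleaved by thrombin. Loss of the human genes for the alpha, beta or IX subunits causes Bernard-Soulier syndrome, a bleeding disorder with giant platelets. The receptor genes are classic markers of megakaryocytes, the cells that shed platelets. Von Willebrand factor is made by megakaryocytes and endothelial cells, and in mouse marrow its gene also marks stem cells with a bias toward platelet production.

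Gp1ba, Gp5, Gp9 and Vwf were each read by 1 probe, and Gp1bb by 3. Every member probe had 1 spot per array, and no member spot was saturated or marked as an outlier. All 5 genes were well above background on all 4 arrays by the scanner software's own call, so none entered the comparison only through a group in which it was high. Signals below are the scanner software's processed, background-subtracted values, with its own error estimate of 1 SD behind the ± sign. Differences are on the log2 scale after each array was divided by its 75th percentile over the probes detected on all 4 arrays. The scanner error covers the reading of a spot and not the spread between animals, which 1 array per group cannot show. No difference between a pair of arrays therefore carries a p-value. A gene was counted as higher or lower when it was at least 1.5-fold apart. In bulk RNA a different number of cells of a type and a different amount of RNA per cell cannot be told apart.

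The 4 arrays lay close together in quality. Between 47.7% and 51.5% of spots were well above background, the median local background was 42 to 45 units, and the SD among repeated spots of other probes was 0.0989 to 0.122 in log2 units. Kit and Ly6a, the genes of the sorting markers c-Kit and Sca-1, and the blood and progenitor genes Ptprc and Cd34 were well above background on every array. Their summed signal, in multiples of the array's 75th percentile, was 39.6 and 38.4 on the native wild-type and Sf3b1+/- arrays and 28.0 and 25.8 on the transplanted ones. Cd34 made up 80.3% to 88.0% of it, and without Cd34 the sum was 4.10 to 5.08. Among the lineage markers, Cd8a was not well above background on any array, Ms4a1 was on some, and Cd3e, Cd4, Itgam and Klrb1c were on all. Relative to the spike-in RNAs the Sf3b1+/- arrays were brighter, at 1.17-fold the wild-type native array in native cells and 2.02-fold in transplanted cells, against 1.35-fold for the wild-type transplanted array. Scaling to the spike-ins moved the median genotype difference of all genes to 0.22 in native and 0.59 in transplanted cells. Differences given for a gene are therefore relative to the bulk of genes.

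All 5 genes had more signal in Sf3b1+/- than in wild-type cells in both settings. In native cells 3 of the 5, Gp1ba, Gp1bb and Gp5, were at least 1.5-fold higher and none was lower, where 3.25% of the 13034 compared genes were that much higher and 4.7% lower. In transplanted cells all 5 were at least 1.5-fold higher, where 7.79% of compared genes were higher and 6.43% lower. With spike-in scaling the compared genes split into 1056 higher and 319 lower in native cells and 6540 higher and 100 lower in transplanted cells. The main split in transplanted cells was 1016 higher and 838 lower, against 1307 and 556 with cyclic loess and 1198 and 619 with quantile normalization. The median over the 5 genes was 0.62 in native and 1.19 in transplanted cells, beside medians of 0.00 and 0.01 over all compared genes. Gp1ba, Gp1bb and Gp5 passed 1.5-fold in both settings, as did 1.07% of compared genes. Because the genes were chosen with earlier results of these data known, these shares are a description and not a test.

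**Figure D1:**
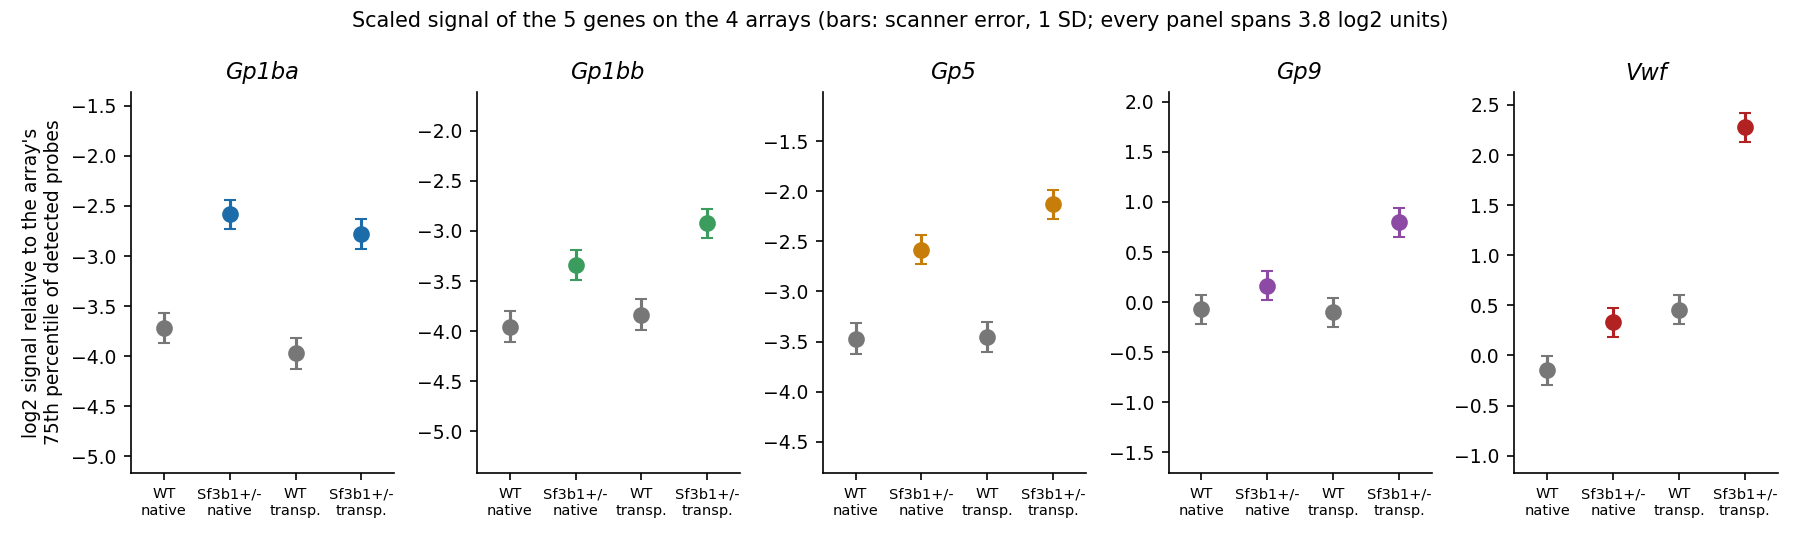
Log2 signal of each gene relative to its array's 75th percentile of detected probes (y axis) on the 4 arrays (x axis), with wild type in grey and Sf3b1+/- in colour and bars for the scanner error. For Gp1ba, Gp1bb, Gp5 and Gp9 both Sf3b1+/- points lie above both wild-type points, and Vwf stands highest on the Sf3b1+/- transplanted array at 2.28.

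Gp1ba (NM_010326), the ligand-binding subunit, gave a signal of 125.6 ± 13.4 units in wild-type native cells, 323.6 ± 32.7 in Sf3b1+/- native cells, 116.4 ± 12.4 in wild-type transplanted cells and 391.3 ± 39.4 in Sf3b1+/- transplanted cells. Both Sf3b1+/- arrays stood clearly above both wild-type arrays. After scaling, the gene was higher by 1.13 ± 0.21 in native cells, which is 2.19-fold, and by 1.19 ± 0.21 in transplanted cells, which is 2.28-fold. Under this scaling the genotype differences of the 2 settings were apart by 0.06 ± 0.30, less than the scanner error. Transplantation went with a slightly lower level in both genotypes, at -0.25 ± 0.22 in wild-type and -0.19 ± 0.21 in Sf3b1+/- cells, both short of 1.5-fold. Among the 13034 compared genes, 0.56% had a larger native increase and 1.34% a larger transplanted one.

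Gp1bb (NM_001001999), the partner of the alpha subunit, gave 106.5 ± 11.6 units in wild-type native, 191.6 ± 19.7 in Sf3b1+/- native, 127.8 ± 13.5 in wild-type transplanted and 354.1 ± 35.8 in Sf3b1+/- transplanted cells on its brightest probe. The order was wild type below Sf3b1+/- in each setting, with the transplanted Sf3b1+/- array highest. The genotype difference was 0.62 ± 0.22 in native cells, or 1.53-fold, and 0.91 ± 0.21 in transplanted cells, or 1.88-fold. The native value lay close to the 1.5-fold line and was 0.43 after normexp background correction.

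The other Gp1bb probes were dim. One, also for NM_001001999, gave 5.62 to 16.0 units and was not well above background on any array. The other, for NM_010327, gave 17.9 units in wild-type native, 19.9 in Sf3b1+/- native and 17.98 in wild-type transplanted cells, none of them well above background, and 36.6 ± 6.11 in Sf3b1+/- transplanted cells, where it was. These probes thus read the gene on 1 array at most, and averaging them with the bright probe gave 0.43 in native and -0.084 in transplanted cells. In the RefSeq annotation Gp1bb overlaps the neighbouring gene Septin5, whose own probe differed by -0.21 between the genotypes in native and 0.51 in transplanted cells.

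Gp5 (NM_008148), the loosely attached subunit, gave 148.8 ± 15.9 units in wild-type native, 323.6 ± 32.8 in Sf3b1+/- native, 166.4 ± 17.4 in wild-type transplanted and 614 ± 61.7 in Sf3b1+/- transplanted cells. The wild-type arrays were level with each other after scaling, with a transplantation difference of 0.02 ± 0.22, and the Sf3b1+/- arrays stood above them. The gene was higher in Sf3b1+/- cells by 0.89 ± 0.21 in the native setting, or 1.85-fold, and by 1.32 ± 0.21 in the transplanted setting, or 2.50-fold.

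Gp9 (NM_018762), the subunit needed for surface display, gave 1573 ± 157 units in wild-type native, 2176 ± 218 in Sf3b1+/- native, 1699 ± 170 in wild-type transplanted and 4668 ± 467 in Sf3b1+/- transplanted cells. After scaling the Sf3b1+/- transplanted array was high and the other 3 lay close together. The native genotype difference was 0.24 ± 0.20, or 1.18-fold, and short of 1.5-fold, and 16.0% of compared genes had a larger one. The transplanted difference was 0.90 ± 0.20, or 1.87-fold.

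Vwf (NM_011708), the ligand, gave 1491 ± 149 units in wild-type native, 2442 ± 244 in Sf3b1+/- native, 2499 ± 250 in wild-type transplanted and 13030 ± 1303 in Sf3b1+/- transplanted cells. A single array, Sf3b1+/- transplanted, stood far above the other 3. Its scaled level of 2.28 compares with 0.45 in wild-type transplanted, 0.33 in Sf3b1+/- native and -0.15 in wild-type native cells. The middle arrays, wild-type transplanted and Sf3b1+/- native, were closer to each other than their scanner error, so their order is not settled. The genotype difference was 0.48 ± 0.20 in native cells, or 1.39-fold, and 1.82 ± 0.20 in transplanted cells, or 3.54-fold, the 33rd largest increase of the 13034 compared genes.

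Vwf was also the member that differed most with transplantation. It was higher in transplanted than in native cells by 0.60 ± 0.20 in wild type, or 1.52-fold, and by 1.95 ± 0.20 in Sf3b1+/- cells, or 3.85-fold. In wild type it was the only member past 1.5-fold, where 7.95% of compared genes were higher and 5.74% lower, and it lay so close to the line that 4 of 9 other processings put it below. In Sf3b1+/- cells Vwf and Gp9 passed, the latter at 0.63 ± 0.20, where 11.4% of compared genes were higher and 7.01% lower. With spike-in scaling 4490 genes were higher and 201 lower in wild type, and 9264 were higher and 99 lower in Sf3b1+/- cells. The main wild-type split was 1036 higher and 748 lower, which became 857 and 991 with the percentile over all probes, 853 and 942 with cyclic loess, 867 and 950 with quantile normalization and 860 and 982 in the series table. Gp1bb at 0.42 ± 0.21 and Gp5 at 0.45 ± 0.21 were on the higher side without reaching 1.5-fold, and Gp1ba at -0.19 ± 0.21 lay within its scanner error. These transplantation differences share their arrays with the genotype differences. Age and transplantation cannot be told apart here.

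**Figure D2:**
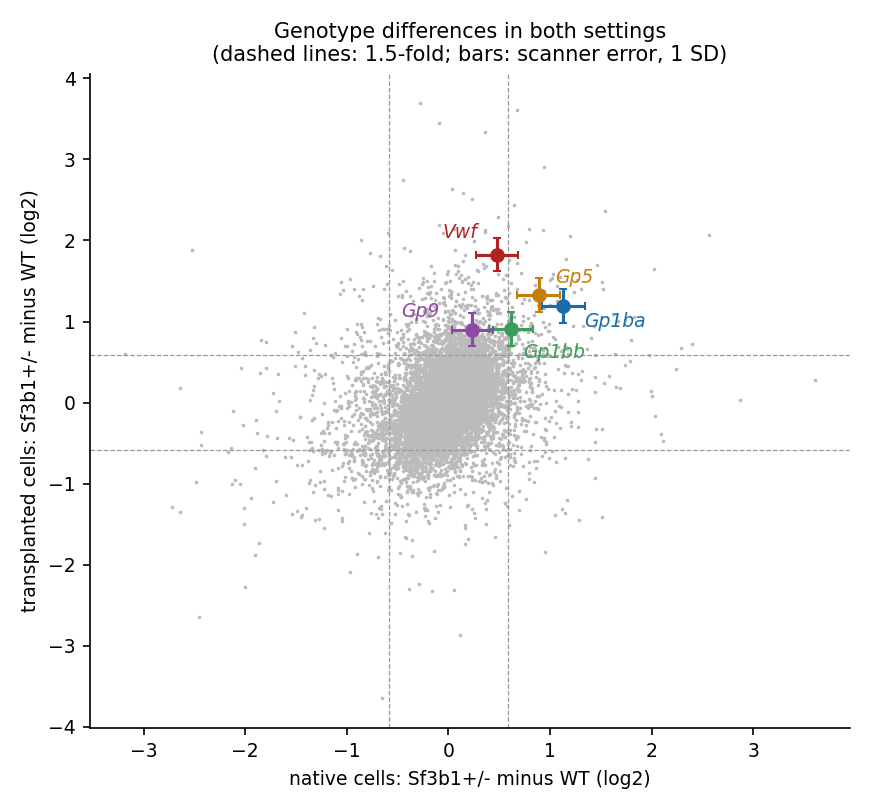
Genotype difference (Sf3b1+/- minus wild type, log2) in native cells (x axis) against transplanted cells (y axis) for all 13034 compared genes (grey) and the 5 genes (colour, with scanner error), with dashed lines at 1.5-fold. Gp1ba, Gp5 and Gp1bb lie past the line on both axes, while Gp9 and Vwf pass it in transplanted cells alone.

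A constant of the array cancels when the differences of members are set against each other, so these gaps are the same under any scaling by 1 factor per array. They do move with the background correction. In native cells Gp1ba had the largest difference. It exceeded that of Gp9 by 0.90 ± 0.29 and that of Vwf by 0.65 ± 0.29, while it exceeded that of Gp5 by 0.24 ± 0.30, within the scanner error. In transplanted cells the order turned, and Vwf exceeded Gp1ba by 0.63 ± 0.29, Gp1bb by 0.91 ± 0.29 and Gp9 by 0.92 ± 0.29. Gp1bb and Gp9 had nearly the same transplanted difference, with a gap of 0.012 ± 0.29. After normexp the native gap of Gp1ba over Vwf was 0.32 and that over Gp9 0.59, and the transplanted gap of Gp1bb to Gp9 was -0.30. The transplanted gap of Gp1ba to Vwf was then -0.97.

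The change of the genotype difference from native to transplanted cells ordered the members in another way. It was 0.06 for Gp1ba, 0.30 for Gp1bb, 0.44 for Gp5, 0.66 for Gp9 and 1.34 for Vwf, with a scanner error of 0.29 to 0.30 each. For Gp1ba and Gp1bb it did not exceed that error under the main scaling. For Vwf the fold difference was 2.54 times as large in transplanted as in native cells, and 1.49% of compared genes had a larger change. With spike-in scaling the genotype differences were 1.35 in native and 1.77 in transplanted cells for Gp1ba, and 0.84 and 1.49 for Gp1bb. With 1 array in each group this contrast has no test.

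The genotype was tested over both settings with limma in a model that also held the setting, with 1 residual degree of freedom per gene. The average genotype difference was 1.16 ± 0.12 (SE) for Gp1ba, with an adjusted p of 0.308, and 1.11 ± 0.16 for Gp5, with an adjusted p of 0.308. For Gp1bb it was 0.76 ± 0.14 (adjusted p = 0.308 with limma), for Vwf 1.15 ± 0.36 (adjusted p = 0.362 with limma) and for Gp9 0.57 ± 0.21 (adjusted p = 0.365 with limma). No member passed an adjusted p of 0.05, nor did any of the 13034 genes (0.0%), whereas 1777 genes, or 13.6%, had an unadjusted limma p under 0.05. With spike-in scaling all 5 members passed, as did 555 genes in all, and after normexp Gp1ba passed, as did 33 genes. The unadjusted limma p was 0.00066 for Gp1ba, 0.0024 for Gp5, 0.0057 for Gp1bb, 0.031 for Vwf and 0.0498 for Gp9. By that p Gp1ba ranked 22nd, Gp5 94th, Gp1bb 224th, Vwf 1124th and Gp9 1768th of 13034 genes. Because the 5 genes were chosen with earlier results of these data known, their p-values and ranks are a description and not independent support.

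In the same limma model the setting difference, transplanted minus native, was 1.27 ± 0.36 for Vwf, with an adjusted p of 0.147. The 4 receptor genes lay between -0.22 for Gp1ba and 0.30 for Gp9, with adjusted p of 0.304 to 0.40 with limma. No member passed, where 0.43% of genes were called higher and 0.153% lower and 25.8% had an unadjusted limma p under 0.05. The residual of this model is the change of the genotype difference between settings, so its size for Vwf also widens the error of Vwf.

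The genes of the wider platelet and megakaryocyte programme were next set beside the receptor. Of 23 compared genes on a list of other platelet and megakaryocyte genes, 4 were at least 1.5-fold higher and 3 lower in native Sf3b1+/- cells, and 11 were higher and 2 lower in transplanted ones. The shares over all compared genes were 3.25% higher and 4.7% lower in native cells and 7.79% and 6.43% in transplanted ones. They apply to the genotype counts of each list below. The list's medians were 0.08 and 0.57, beside 0.00 and 0.01 over all genes. Higher in both settings were Ppbp, a platelet chemokine (1.51 and 1.49), Clec1b, the platelet podoplanin receptor (1.08 and 0.68), Pf4, platelet factor 4 (0.68 and 0.78), and Itgb3, the beta chain of the fibrinogen receptor (0.59 and 1.02). Clu, the platelet granule protein clusterin, stood at 0.49 and 1.33. Thbs1, a granule protein that the GPIb receptor can also bind, was lower in both (-0.59 and -0.64). Also lower were Selp and the platelet kinase substrate Plek in native cells, at -0.70 and -0.68. The native values of Itgb3 and Thbs1 lay only just past the 1.5-fold line, which is 0.585 in log2 units either way. In this list none passed an adjusted limma p of 0.05 for the genotype.

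A subset of 8 markers of that list, among them Itga2b, Pf4, Ppbp and Tubb1, was summed. Of these, 7 passed the scanner's background call on each of the 4 arrays, and Tubb1, the tubulin of mature megakaryocytes and platelets, did so on none. Their summed signal, in multiples of the array's 75th percentile, was 13.9 in wild-type native, 21.2 in Sf3b1+/- native, 16.0 in wild-type transplanted and 28.4 in Sf3b1+/- transplanted cells. All 7 compared markers were at least 1.5-fold higher in transplanted Sf3b1+/- cells and 4 in native ones, Itgb3 only just. None of the 7 was lower in either setting, so the lower genes of the full list all lie outside this subset. Of the 23 compared genes on that list, 4 were higher and 3 lower in native cells, and 11 higher and 2 lower in transplanted ones. Pf4 alone made up 74.8% to 80.5% of the sum, and without it the values were 3.51, 4.49, 3.13 and 6.28. With and without Pf4, both Sf3b1+/- arrays stood above both wild-type arrays, as they did for the 4 receptor genes and did not for Vwf. For Gp1ba the highest array was Sf3b1+/- native, while for the sum it was Sf3b1+/- transplanted. The part of megakaryocyte-lineage cells in the results for the 5 genes was not tested.

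Of 10 compared endothelial markers, the median genotype difference was -0.12 in native and 0.24 in transplanted cells. With transplantation their median was -0.01 in wild type, with 2 higher and none lower, where 7.95% of compared genes were higher and 5.74% lower. In Sf3b1+/- cells it was 0.37, with 4 higher and none lower, where 11.4% of compared genes were higher and 7.01% lower. The summed signal of all 15 markers was 25.2 in wild-type native, 22.4 in Sf3b1+/- native, 24.8 in wild-type transplanted and 20.4 in Sf3b1+/- transplanted cells. Egfl7 alone made up 70.7% to 81.8% of it, and without Egfl7 the values were 4.81, 4.08, 5.62 and 5.98. Without Egfl7 the sum was highest on the Sf3b1+/- transplanted array, at 5.98 beside 5.62 in wild-type transplanted cells, and with Egfl7 it was lowest there. In native cells the sum was lower in Sf3b1+/- than in wild type either way. Of the defining endothelial genes, Cdh5, which encodes VE-cadherin, and Sox17 were not well above background on any array, while Plvap and the tight-junction gene Cldn5 were on all 4. In transplanted cells 3 of the 10 compared markers were at least 1.5-fold higher in Sf3b1+/-, led by Ramp2, a co-receptor of adrenomedullin (3.45), and Tie1, an endothelial receptor kinase also found on stem cells (1.29), with the adhesion gene Esam at 0.72, and 1, the VEGF receptor gene Kdr, was lower (-0.81). The part of endothelial cells in the results for Vwf was not tested. In native cells 1 of 10 was higher, Cldn5 at 0.86, and none was lower.

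Genes for handling von Willebrand factor were described in the same way. Of 18 compared genes for its cutting, granule storage, release, cofactors and clearance, none was at least 1.5-fold higher and 1 was lower in native Sf3b1+/- cells, and 1 was higher and 1 lower in transplanted ones. The medians were 0.02 and 0.17. The lower genes were the clearance receptor Lrp1 in native cells (-0.73) and Cracr2a in transplanted cells (-0.90), and the higher one was Rab27b, a GTPase of granule release, at 0.08 and 0.67. Unc13d, a granule priming factor, differed by 0.19 and 0.52, and Nbeal2, which platelets need to make alpha granules, by 0.38 and 0.50. Adamts13, the protease that trims von Willebrand factor, was not well above background on any array, and F8, the coagulation factor that it carries, on 1.

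The receptor's inner partners and signalling enzymes made up another list. Of 24 compared genes none was 1.5-fold apart in native cells and 1 was higher in transplanted cells, with medians of 0.05 and 0.03. That gene was Fermt3, which encodes the integrin activator kindlin-3 (0.21 and 0.82). Tln1, which encodes talin, stood at 0.20 and 0.49, and Traf4 at -0.40 and -0.37. Flna, whose product filamin ties the alpha subunit to the actin skeleton, differed by 0.14 and 0.23, and Adam17, which encodes the protease that sheds the alpha subunit, by 0.14 and 0.12.

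Of 7 other ligands of the alpha subunit, 3 were compared. Thbs1 was lower in both settings, Itgam, the alpha chain of the leukocyte integrin Mac-1, differed by 0.01 and -0.42, and Selp, which encodes P-selectin, by -0.70 and 0.57. Selp was also higher in transplanted than in native cells by 1.60 in wild type and 2.87 in Sf3b1+/-, the same direction as Vwf, with which its protein shares storage granules. The native genotype difference of Selp was opposite in sign to that of Vwf. Of the 18 compared genes for handling von Willebrand factor, 2 were higher and 1 lower with transplantation in wild type. In Sf3b1+/- cells 3 were higher and 2 lower. Over all compared genes 7.95% were higher and 5.74% lower in wild type, and 11.4% and 7.01% in Sf3b1+/- cells.

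**Figure D3:**
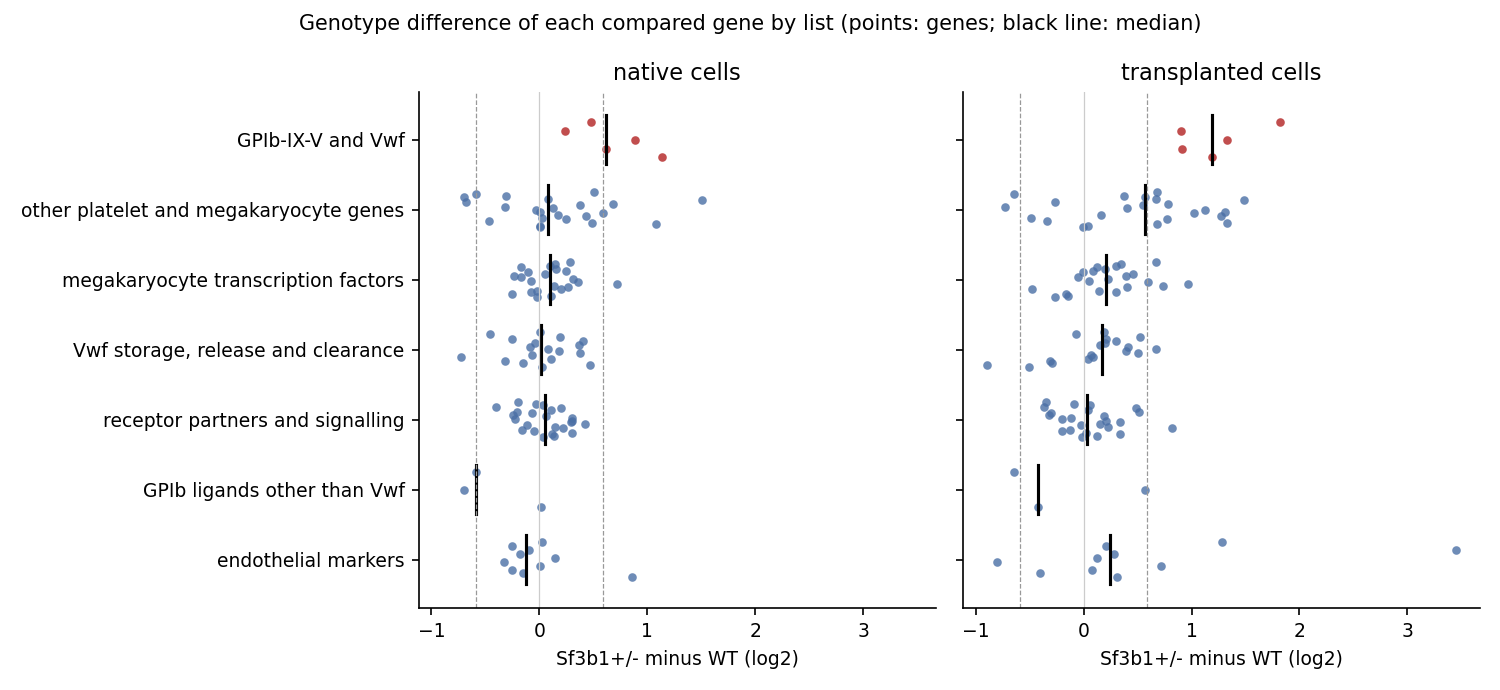
Genotype difference (x axis, log2) of each compared gene in 7 lists (rows) in native (left) and transplanted cells (right), with a black line at each list's median and dashed lines at 1.5-fold. The receptor and Vwf row lies wholly to the right of 0 in both panels, while the signalling partners centre at 0.05 and 0.03.

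Transcription factors of the megakaryocyte lineage were compared because GATA and ETS factors are known regulators of the receptor genes. Of 22 compared factors, 1 was at least 1.5-fold higher in native Sf3b1+/- cells and 4 in transplanted ones, and none was lower in either, with medians of 0.10 and 0.21. Gfi1b, a repressor needed for platelet and red cell formation, was the one higher in both (0.71 and 0.96). The others higher in transplanted cells were Zfpm1, Ldb1 and Gata2. Zfpm1, the GATA cofactor FOG1, differed by 0.29 and 0.67 and the bridging factor Ldb1 by 0.36 and 0.59. Gata1 stood at 0.27 and 0.40, Gata2 at 0.13 and 0.74, Fli1 at -0.02 and 0.14, and Runx1 at -0.17 and 0.12.

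The sequences before the transcription starts are shown because Gp1ba, Gp1bb and Gp5 passed 1.5-fold in native and in transplanted cells, and Gp9 in transplanted cells alone. RefSeq promoter entries of build GRCm38.p6 were matched for 4 of the 5 genes, Gp1ba, Gp1bb, Gp5 and Gp9. The 250 bases before each start were searched on both strands for the 6-letter GATA site, spelled AGATAA or AGATAG as well as TGATAA or TGATAG, for the shorter GATAA, which overlaps some of these sites, for the ETS core GGAAG and for the RUNX core TGTGGT. Capitals mark the GATA matches of either length, and a match on the opposite strand appears as its reverse complement. The sequences run 5′ to 3′ on the strand of the gene.
Gp1ba, chr11:70638872-70639121, plus strand: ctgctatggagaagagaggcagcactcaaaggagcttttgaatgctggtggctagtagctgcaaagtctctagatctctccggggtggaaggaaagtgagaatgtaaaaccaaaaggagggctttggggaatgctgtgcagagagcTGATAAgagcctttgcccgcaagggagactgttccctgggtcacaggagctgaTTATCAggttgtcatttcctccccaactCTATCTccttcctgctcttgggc
Gp5, chr16:30310782-30311031, minus strand: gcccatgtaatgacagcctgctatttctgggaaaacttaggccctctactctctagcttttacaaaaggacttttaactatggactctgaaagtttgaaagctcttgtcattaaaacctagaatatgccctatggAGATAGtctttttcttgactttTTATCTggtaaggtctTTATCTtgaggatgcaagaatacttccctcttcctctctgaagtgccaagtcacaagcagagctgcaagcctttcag
Gp1bb, chr16:18622408-18622437, minus strand: gcacctccccgcCTATCAtaagggaacaag
Gp9, chr6:87778015-87778044, plus strand: ctgtctttagggGATAAgccaggctatttt

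Gp1ba and Gp5 each held 3 of the 6-letter GATA sites, and these are printed whole. In Gp1ba they began 104, 51 and 23 bases before the start, and in Gp5 115, 93 and 77 bases before it. Gp1bb held 1 such site, 22 bases before the start, and Gp9 held none but had the shorter GATAA 43 bases before it, so for these genes only the 30 bases around the match are printed. Of 32851 promoters in the table, 26.5% held at least 1 of the 6-letter sites within the same length and 6.40% held 2 or more. The share with 3 or more was not counted. GATAA was held by 22.6% of promoters, and by 4.28% at least 2 times, as in Gp1ba and Gp5, which had it 2 times each. Each of the 4 genes had 2 matches to the ETS core, which 29.4% of promoters had at least as often, and Gp9 had the only match to the RUNX core, which 14.0% of promoters held. A match is a run of letters and was not tested for binding.

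**Figure D4:**
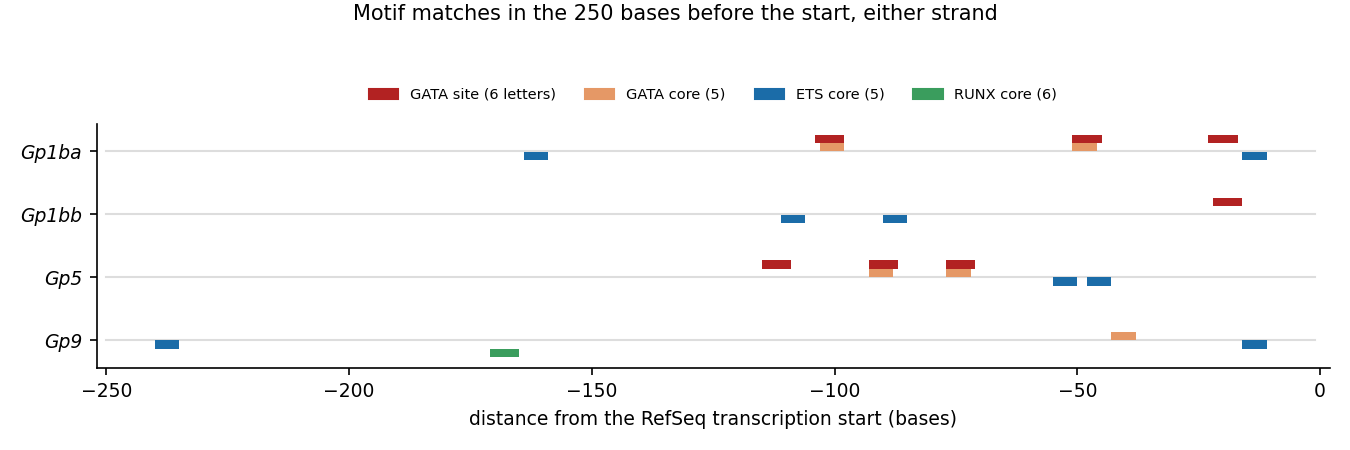
Positions of the motif matches (coloured bars, one row of marks per motif) in the 250 bases before the RefSeq start of 4 genes, with distance from the start on the x axis. Gp1ba and Gp5 carry 3 GATA sites each and every gene carries 2 ETS cores.

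For each member the 3 compared genes with the most similar pattern over the 4 arrays were found by Euclidean distance of log2 values, each centred on its own mean. Nearest to Gp1ba were Mycn (distance 0.15), Zfp563 (0.19) and Pfkfb2 (0.20). Nearest to Gp5 were Fcgr4 (0.11), Grrp1 (0.19) and Adgrl1 (0.22), and nearest to Gp1bb were L3mbtl2 (0.09), Nop14 (0.10) and Slc22a15 (0.10). Gp9 was nearest to Wtip (0.05), Pdcd11 (0.07) and Cenpt (0.08). Vwf was nearest to Hoxb2 (0.18), Exoc3l (0.19) and Pde9a (0.22), all highest on the Sf3b1+/- transplanted array. With 4 arrays many genes share a pattern, and these names are a description.

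Among themselves the receptor genes lay closer to each other than to Vwf. Gp1bb lay 0.27 from Gp9, 0.35 from Gp5 and 0.64 from Gp1ba. Gp1ba lay 0.50 from Gp5 and 0.85 from Gp9, and Gp5 lay 0.55 from Gp9. The distance from Vwf to the receptor genes was 1.13 for Gp5, 1.19 for Gp9, 1.199 for Gp1bb and 1.63 for Gp1ba. Ranks by nearness among 13033 other genes differed with the gene they were taken from. From Gp5, Gp1bb came 22nd, Gp1ba 72nd and Gp9 122nd. From Gp9, Gp1bb came 205th, Gp5 2062nd and Gp1ba 6849th. From Vwf, Gp5 came 338th, Gp9 432nd, Gp1bb 457th and Gp1ba 2809th. The range over the 4 arrays was 2.43 for Vwf and 0.90 to 1.39 for the receptor genes. Both Sf3b1+/- arrays stood above both wild-type arrays for 4 of the 5 genes, all but Vwf, as they did for 17.8% of compared genes.

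**Figure D5:**
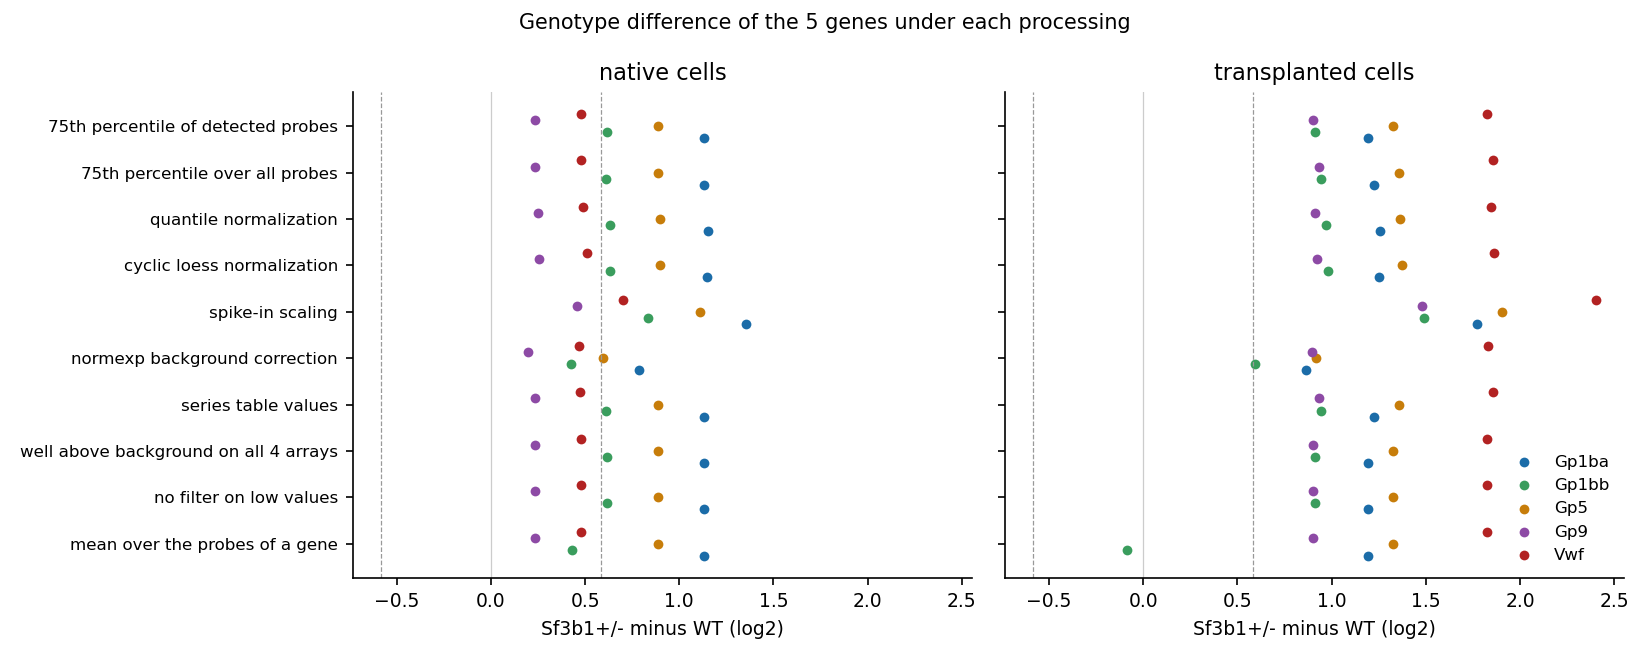
Genotype difference (x axis, log2) of the 5 genes in native (left) and transplanted cells (right) under the main scaling and 9 other processings (rows), with dashed lines at 1.5-fold. Vwf lies from 1.82 to 2.41 in transplanted cells, and the single point below 0 is Gp1bb when its dim probes are averaged in.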

How the data were processed

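RNA of sorted LSK cells was measured on 4 single-colour Agilent arrays, 1 per group. Per the file headers, the deposited intensity values came from Feature Extraction 10.7.1.1 with probes on build mm9, and the processed signal is background-subtracted and detrended within the array, and is not scaled across arrays. Values of the authors' series table, also deposited, are a ratio: each is the processed signal over 1 constant per array, with column medians of 0.0810, 0.0745, 0.0816 and 0.0747, linear and uncentred, in the direction of the signal. No label names the tool.

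Probes were named through RefSeq accessions of GRCm38.p6, and 27509 of 55681 matched. Spots of a probe were averaged as log2 values and shifted by the array's 75th percentile over probes detected on all 4 arrays, since 49.5% of spots were detected on average. The probe with the highest mean stood for its gene. Genes well above background on at least 2 arrays were compared, 13034 in all, 12176 of them detected on every array. Genotype and setting were fitted with limma 3.58.1 in R 4.3.3 (two-sided, Benjamini-Hochberg over all compared genes). The fit was also run on simulated data with independent noise and the same genotype effect in both settings. That run does not cover genes whose genotype difference changes between settings. The limma p-values rest only on how these 4 arrays vary, which can be technical variation. Groups came from the labels. All arrays share a slide, so place on it cannot be told apart from group.

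The members and lists were chosen with earlier results of these data known. Genes named beside the members are, per list, those at least 1.5-fold apart one way in both settings, the 3 with the largest mean genotype difference, and the 3 nearest to each member in pattern. Flna, Adam17, Adamts13, F8, Septin5, Gata1, Fli1 and Runx1 were added for their known roles, and Plek, Esam, Kdr, Lrp1, Cracr2a and Gata2 to complete a count, after their values were seen. Some genes of the lists are not reported here by name. Alternatives were other scalings, background correction, filters and probe summaries.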

Additional observations from a re-analysis of the deposited data

Results flagged for a closer look

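Gp9 had transplantation differences of opposite sign in the 2 genotypes, at -0.031 ± 0.20 in wild-type and 0.63 ± 0.20 in Sf3b1+/- cells. The wild-type value is smaller than the scanner error and lay between -0.10 and 0.40 over the processings, and the difference between the genotypes was not tested.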

How the results depend on the processing

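Of 90 genotype differences of the 5 genes under 9 alternatives, 89 were positive, and 69 of the 72 that stood for a call of 1.5-fold kept it. The exceptions were all Gp1bb: 0.43 in native cells after normexp, and 0.43 in native and -0.084 in transplanted cells when its dim probes were averaged in, a consequence of probes that are not well above background. Not all alternatives could move these differences. Those on filters left the values of the members as they were, and averaging probes could change Gp1bb alone. The series table holds the same processed signal over 1 constant per array. Spike-in scaling brought native Vwf to 0.70. For wild-type transplanted minus native, 0 members were at least 1.5-fold higher with the percentile over all probes, cyclic loess, normexp and the series table, against 1. For Sf3b1+/- it was 5 with spike-in scaling, against 2. In the limma fit 0 members passed for the genotype and 0 for the setting. Spike-in scaling gave 5 and 4, and turned the setting difference of Gp1ba to 0.39. Normexp gave 1 and 1, Gp1ba for the genotype (adjusted p = 0.0452; 6.14e-05 to 0.378 over all processings with limma) and Vwf for the setting (adjusted p = 0.026; 2.47e-08 to 0.282). All genes called then numbered 555 and 5426 with spike-in scaling and 33 and 1430 with normexp, against 0 and 76. With spike-in scaling limma gave all 5 members the same SE of 0.30 for both terms, where the main fit gave 0.12 to 0.36. The cause of these changes was not tested.

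Genes at least 1.5-fold higher in native Sf3b1+/- cells numbered 423, against 1056 with spike-in scaling, 39 with normexp, 223 when detected on all arrays and 1131 with no filter. In transplanted cells there were 1016, against 6540, 392 and, with no filter, 1843. With transplantation they were 1036 in wild type, against 4490, 339 and 1896, and 1482 in Sf3b1+/-, against 9264, 683 and 2398. Genes at least 1.5-fold lower numbered 613 in native cells, against 319, 213 and 1752, and 838 in transplanted cells, against 100 with spike-in scaling, 556 with cyclic loess and 2147 with no filter. With transplantation they were 748 in wild type, against 201, 374 and 1887, and 914 in Sf3b1+/-, against 99 and 2107. Normexp used the spot medians, since the planned column of spot means was not among the columns used here, and this was chosen after seeing the data. No paired analysis was possible because each group has 1 array. The number of arrays limits the precision, and Gp1ba, Gp1bb and Gp5 lie nearest to background.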
